A study of Homo sapiens with 6 samples.

Results

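The replication-dependent histone genes encode the linker histone H1 and the core histones H2A, H2B, H3 and H4, around which DNA is wound. They lie in tight clusters, and in S phase, when new DNA must be packaged, their messages are made in bulk without introns and end in a stem-loop instead of a poly(A) tail. Transcription is concentrated in nuclear histone locus bodies, where the coactivator NPAT acts downstream of cyclin E and CDK2, and E2F factors, which RB holds in check, drive NPAT and many other S phase genes.

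Open chromatin at these clusters was described in LNCaP, a human prostate cancer cell line that responds to androgen. The assay was ATAC-seq, in which a transposase cuts accessible DNA and sites with many insertions are listed as peaks. The members are all peaks that overlap 3 windows of hg19: 26000000 to 26290000 on chromosome 6 (the first chromosome 6 cluster, 290 kb), 27770000 to 27870000 on chromosome 6 (the second, 100 kb) and 149780000 to 149870000 on chromosome 1 (90 kb). There were 18 such peaks among 39780 in all. Cells with the control hairpin shCON, deprived of hormone by 72 hours of CDT, had 7 of 12096 peaks there. shCON cells given 72 hours of CDT and 3 hours of DHT, an androgen, had 5 of 12896, and cells with the hairpin shRB, against the retinoblastoma protein RB, after 72 hours of CDT had 6 of 14788. Each group had 2 libraries, which the authors combined into 1 list, so differences between conditions have no replicate check and are given without p-values. All intervals below are exact 95% intervals for counting error only. The lists hold no read counts, sequencing depth is unknown, and a site missing from a list was not measured as closed. All 3 groups are the same cell line, and the labels do not say whether a hairpin line is 1 clone or how far RB protein fell.

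The genes that the label names were looked up by symbol, and their positions were not compared with the hg19 windows. The stretches below are stretches of gene order and need not match the windows. Of the list of 59 histone genes, all were found in the RefSeq gene table of GRCh38: 32 from H1-1 to H4C8 for the first chromosome 6 cluster, 16 from H2BC13 to H2BC17 for the second, and 11 from H2BC18 to H2AC21 for chromosome 1. They comprise 6 genes for H1, 13 for H2A, 14 for H2B, 13 for H3 and 13 for H4. In that gene order HFE, an iron regulator, is the only other protein-coding gene within the first stretch, and none lies within the second. FCGR1A, an Fc receptor, and LOC124904411 lie within the chromosome 1 stretch. Peaks are given in hg19 and genes in GRCh38, so no peak was assigned to a gene, and no peak sequence is shown.

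Promoters of these genes are shown to convey what a start site in the clusters looks like, and not because a peak was placed on them. RefSeq promoters (GRCh38.p14) were matched by symbol for 55 of the 59 genes. H4C1, H4C3, H3C11 and H3C12 were not matched. The 150 bases before the start of the first matched gene of each kind in the first cluster follow, 5′ to 3′ on the gene's strand. Capitals mark the letters TATAAA of a core element near the start, the box of the factor NF-Y, spelled CCAAT, the octamer bound by OCT1 (ATTTGCAT) or an E2F motif (TTTCGCGC or TTTGGCGC), each on either strand.
H1-1: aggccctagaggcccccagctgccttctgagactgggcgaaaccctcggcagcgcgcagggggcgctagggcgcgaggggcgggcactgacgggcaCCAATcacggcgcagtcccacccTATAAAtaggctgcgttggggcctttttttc
H2AC4: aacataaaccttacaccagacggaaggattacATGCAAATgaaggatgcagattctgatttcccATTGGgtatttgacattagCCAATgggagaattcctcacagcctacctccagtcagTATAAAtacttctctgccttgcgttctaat
H2BC3: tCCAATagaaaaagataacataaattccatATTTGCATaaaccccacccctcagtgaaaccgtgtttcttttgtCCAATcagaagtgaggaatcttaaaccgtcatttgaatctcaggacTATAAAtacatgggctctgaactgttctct
H3C1: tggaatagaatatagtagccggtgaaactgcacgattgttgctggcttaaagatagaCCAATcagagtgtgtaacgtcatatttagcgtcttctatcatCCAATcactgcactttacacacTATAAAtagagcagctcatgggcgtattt
H4C2: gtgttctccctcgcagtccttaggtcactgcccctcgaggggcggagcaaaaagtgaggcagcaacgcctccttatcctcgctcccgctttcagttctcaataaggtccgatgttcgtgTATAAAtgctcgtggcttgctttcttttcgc

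In the 250 bases before the start, CCAAT was found in all 6 H1, 13 H2A, 14 H2B and 11 H3 promoters matched, but in 2 of 11 H4 promoters. Over all 35116 promoters of the table the share was 32%. TATAAA occurred in 36 of the 55 histone promoters (65.5%), against 10.7% of all promoters. The octamer occurred in 11 of 14 H2B and 9 of 13 H2A promoters and in none of the 28 others, against 1.63% of all promoters. H2A and H2B genes often stand back to back: 8 pairs of neighbours in the clusters, such as H2BC4 and H2AC6 or H2AC7 and H2BC7, are transcribed away from each other, and the promoter windows of such a pair can share sequence, so that 1 octamer may count for both. An E2F motif was found in 8 of the 55 (14.5%), namely 4 H2A, 3 H2B and 1 H3 promoter, against 0.968% of all promoters. Here too 1 site may count for both genes of a pair, or again in genes that are copies of each other. None of the searched motifs contains another, and a match in a window is not a bound site.

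Several genes in the clusters are copies of each other, which matters for short reads. H4C14 and H4C15 on chromosome 1 have promoters with 300 of 300 bases alike, shown here for the 150 bases before the start, where none of the motifs occurs.
H4C14 and H4C15: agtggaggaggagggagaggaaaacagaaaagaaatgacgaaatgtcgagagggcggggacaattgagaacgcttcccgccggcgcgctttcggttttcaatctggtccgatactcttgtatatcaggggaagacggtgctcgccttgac
Also on chromosome 1, the promoters of H3C14 and H3C15 share an unbroken run of 296 bases and those of H2AC18 and H2AC19 a run of 299. In the second chromosome 6 cluster H4C11 and H4C12 are alike at 295 of 300 bases. How reads that match several places were handled is not given in the sources used here, and its part in which sites were listed was not tested.

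Per gene the clusters had fewer listed peaks than the whole lists, but per 100 kb they had more. Per 10 histone genes shCON CDT listed 1.19 peaks, shCON DHT 0.847 and shRB CDT 1.0. Over the whole lists, per 10 protein-coding genes of the RefSeq table, there were 6.03, 6.43 and 7.37 peaks. These are ratios of list length to gene number, with no claim that a peak lies at a gene. The whole-list ratios count peaks anywhere in the genome, whereas the cluster ratios count only peaks in the 480 kb of windows. Per 100 kb the clusters stood at 3.73, 2.50 and 2.61 times the density of the genome, in the same order. Joined where they overlapped by at least 1 bp, the 18 peaks formed 11 regions, 5 in the first chromosome 6 cluster, 4 in the second and 2 on chromosome 1.

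**Figure D1:**
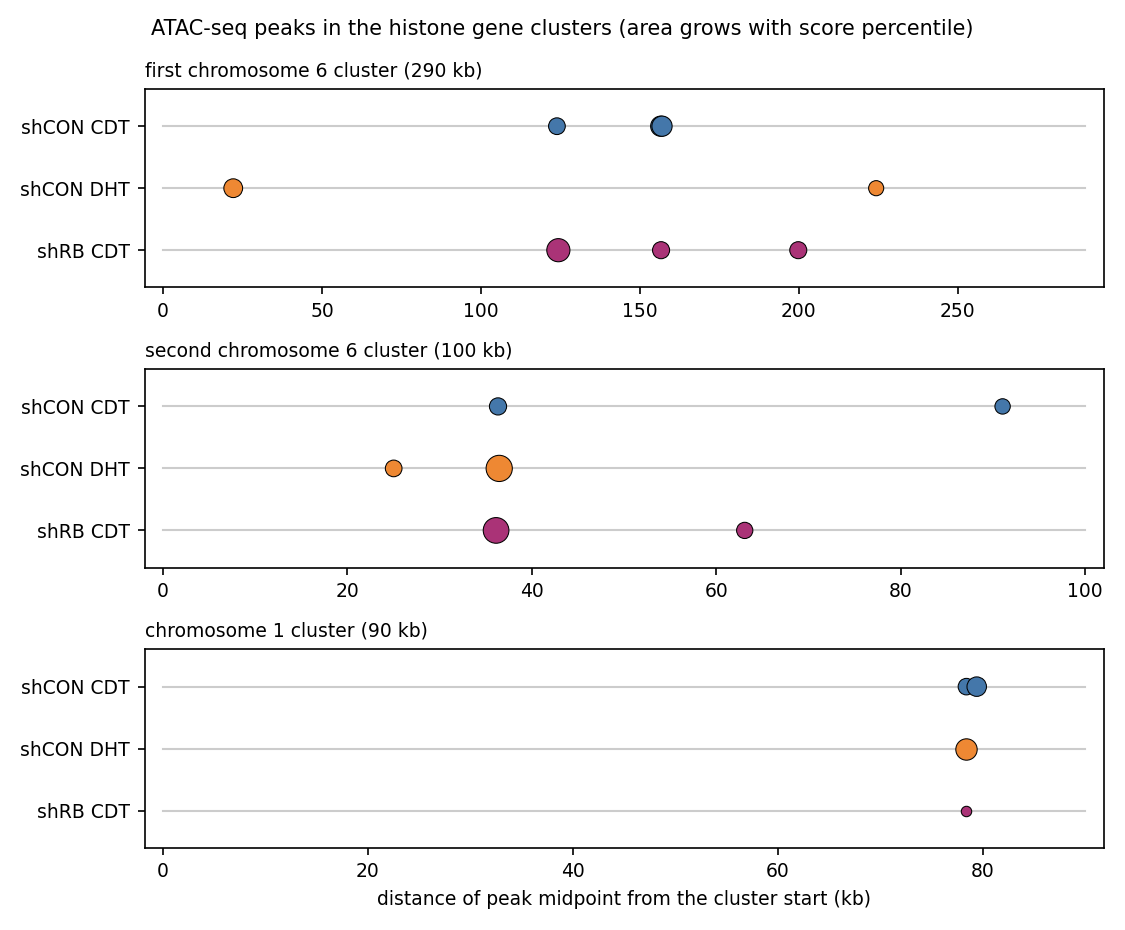
Position of every peak in the 3 clusters, 1 row per peak list. The x axis is the distance of the peak's midpoint from the cluster start in kb, and the marker's area grows with the peak's score percentile within its list (markers do not show peak width). In the first chromosome 6 cluster the 2 shCON DHT peaks overlap no CDT peak (2 of 2, interval 15.8 to 100%, against 36.7% and 30.6% of that list without a counterpart in shCON CDT and shRB CDT), while 1 site in each of the other clusters is marked in all 3 rows.

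In the first chromosome 6 cluster no site was listed in all 3 conditions, and the DHT list shared no site with either CDT list. Over the genome 34.0% of regions were in all 3 lists, a share that the interval for 0 of these 5 regions (0 to 52.2%) includes. Neither of the 2 shCON DHT peaks had a counterpart (15.8 to 100%), against 36.7% of that list with none in shCON CDT and 30.6% with none in shRB CDT. All 3 shCON CDT and all 3 shRB CDT peaks were missing from shCON DHT (29.2 to 100% for each), against 34.6% and 42.1% of their lists. Each interval includes its background, so with so few peaks these counts are a description only. Both sites that shCON CDT and shRB CDT had in common lay in its middle. The first of them ran from 26123138 to 26124827, 1690 bp in all. Its shCON CDT peak was 1525 bp wide with a score of 556, and its shRB CDT peak 898 bp wide with a score of 996, and the peaks overlapped by 733 bp. The score is the authors' own value per peak, a whole number with a cap of 1000, used here only as a rank within a list: 556 stood at the 27.8 percentile of shCON CDT and 996 at the 64.6 percentile of shRB CDT. So the narrower shRB CDT peak held the higher rank in its own list.

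The other site in common ran from 26156431 to 26157116. It was a single shRB CDT peak of 433 bp (score 576, percentile 29.5) over a pair of shCON CDT peaks of 267 and 334 bp (scores 719 and 720, percentiles 46.2 and 46.4). Only 0.072 kb separated the members of the pair, so a single site is counted as 2 peaks in shCON CDT. The nearest shCON DHT peak was 67.0 kb away from this site and 99.3 kb from the first.

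Another CDT site, from 26199279 to 26200268, was listed in shRB CDT only, 990 bp wide with a score of 574 (percentile 29.2). The nearest shCON CDT peak was 42.2 kb away and the nearest shCON DHT peak 23.9 kb. Both shCON DHT peaks of the cluster were in that list only. One, from 26021639 to 26022556, was 918 bp wide with a score of 592 (percentile 38.2), with no shCON CDT peak within 100.6 kb. The other, from 26224137 to 26224498, was 362 bp wide with a score of 491 (percentile 20.4), with a gap of 67.0 kb to shCON CDT. They framed the CDT sites on both sides, and 202 kb between them, 69.5% of the cluster, held no shCON DHT peak.

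The second chromosome 6 cluster held a site listed in all 3 conditions, from 27805706 to 27807081, whose peak ranked highest among the cluster peaks of shCON DHT and of shRB CDT but not of shCON CDT. The shCON CDT peak was 785 bp wide (score 572, percentile 30.0), the shCON DHT peak 1229 bp and the shRB CDT peak 845 bp. In shCON DHT and shRB CDT it reached the score cap of 1000, which 27.0% of shCON DHT and 35.1% of shRB CDT peaks do, and 607 bp were common to all 3. Its shCON DHT peak was 1.57 times as wide as its shCON CDT peak and its shRB CDT peak 1.08 times. Over the 6240 regions of the genome with 1 peak in every list the median ratios were 0.896 (range 0.110 to 4.48) and 1.04 (0.254 to 6.34).

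Each condition had 1 further site in this cluster, and all 3 of these were low in rank. shCON DHT had a peak of 216 bp from 27794913 to 27795128 (score 526, percentile 27.5), the narrowest of the 18. shRB CDT had one of 494 bp from 27832846 to 27833339 (score 547, percentile 25.6), and shCON CDT one of 823 bp from 27860646 to 27861468 (score 515, percentile 21.6). The gap to the nearest peak of another list was 10.6 kb for the shCON DHT peak, 25.8 kb for the shRB CDT peak and 27.3 kb for the shCON CDT peak. None of them was thus a near miss of the 1 bp overlap.

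On chromosome 1 all listed open sites lay in a stretch of 1.72 kb near the upper end of the cluster. The 78.1 kb before it, 86.8% of the cluster, held no peak in any list. Whether the near-identical chromosome 1 promoters described above fall in these 78.1 kb, or bear on the lack of peaks, was not tested. The site in all 3 lists ran from 149858082 to 149858716, where shCON CDT had a peak of 598 bp, shCON DHT one of 600 bp and shRB CDT one of 560 bp. These agreed closely in place, with 551 bp common to all 3. Their ranks within the lists were spread widely: the score was 550 in shCON CDT (percentile 26.9), 724 in shCON DHT (percentile 53.3) and 426 in shRB CDT (percentile 3.17), the lowest rank among the 18 peaks. The second site, from 149859047 to 149859801, was a shCON CDT peak of 755 bp (score 676, percentile 42.2). The nearest shCON DHT peak, 0.365 kb away, and the nearest shRB CDT peak, 0.356 kb away, were those of the common site. That site also had its own shCON CDT peak, 0.33 kb from this one. The second site thus had no counterpart in the other lists.

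The window edge bears on this cluster. The last peak inside ended at 149859801, well short of the edge at 149870000. The next region, listed in shCON CDT and shRB CDT, began 0.935 kb beyond the edge, from 149870936 to 149872142. At the other edges the nearest outside region lay 719 and 51.9 kb from the first chromosome 6 cluster, 329 and 178 kb from the second, and 104 kb below the chromosome 1 cluster.

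Against the neighbouring 1 Mb on each side, the 3 clusters together had more peaks per 100 kb in every list, but each interval of the ratio included 1. Among the higher-scoring 50% of peaks the ratio was 0 for shCON CDT (0 to 2.08), 1.34 for shCON DHT (0.15 to 5.66) and 0.878 for shRB CDT (0.101 to 3.51). These rest on 0, 2 and 2 cluster peaks, and each interval again included 1, so they show no difference between the lists. Over the 3 clusters, shCON CDT had 1.46 peaks per 100 kb against 0.803 in the neighbours, a ratio of 1.82 (0.690 to 4.07). In shCON DHT the densities were 1.04 and 0.858, a ratio of 1.21 (0.377 to 3.04), and in shRB CDT 1.25 and 0.931, a ratio of 1.34 (0.471 to 3.13). The whole lists had 0.391, 0.417 and 0.478 peaks per 100 kb, in the same order. The neighbours thus stood at 2.05, 2.06 and 1.95 times the density of the genome and the clusters at 3.73, 2.50 and 2.61 times.

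By cluster, each ratio to the neighbours rests on few peaks. Every interval includes 1 and the intervals overlap widely, so the ratios cannot tell the 3 clusters apart. The second chromosome 6 cluster had 2 peaks per 100 kb in every list, 3.33 times its neighbours in shCON CDT (0.362 to 14.97), 2.22 times in shCON DHT (0.25 to 9.28) and 3.08 times in shRB CDT (0.337 to 13.6). The first had ratios of 2.96 (0.493 to 12.9), 1.38 (0.147 to 6.47) and 2.30 (0.40 to 9.21). Its neighbours were uneven: the 1 Mb below held 1 peak in each list, a site in all 3, while the 1 Mb above held 6, 9 and 8 peaks. The chromosome 1 cluster stood in a peak-rich stretch, with 29, 25 and 33 peaks in its neighbours, and its ratios were 1.53 (0.177 to 6.06), 0.889 (0.0216 to 5.43) and 0.673 (0.0166 to 4.02). By bases covered, the clusters' share in shCON CDT was 1.06% against 0.518% in the neighbours, in shCON DHT 0.693% against 0.530%, and in shRB CDT 0.879% against 0.739%.

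**Figure D2:**
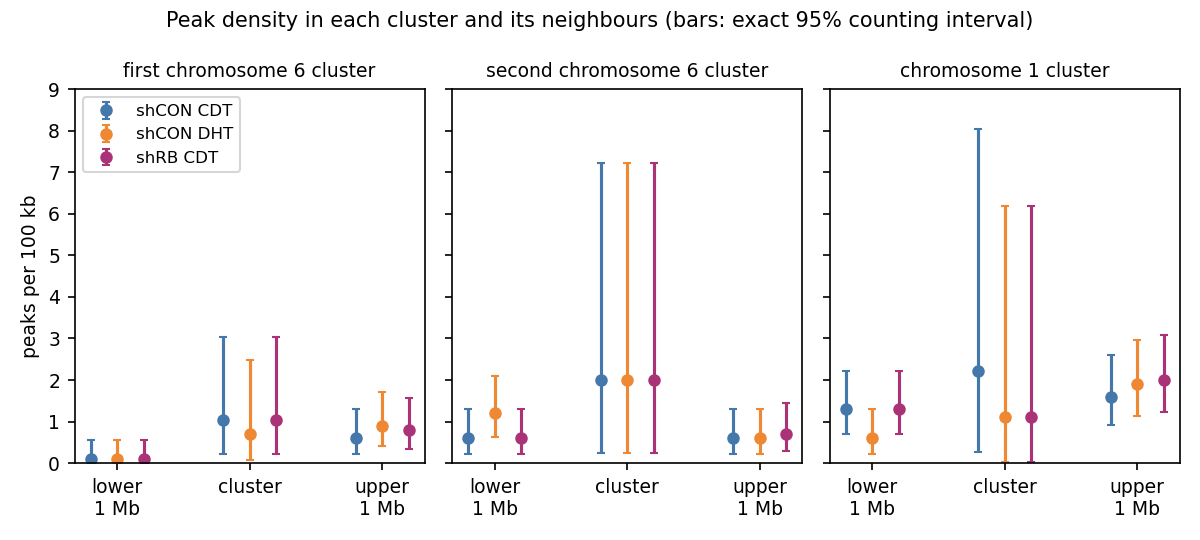
Peaks per 100 kb in each cluster and in the 1 Mb below and above it, by list. Points are densities and bars exact 95% Poisson intervals. Every cluster's interval overlaps those of its neighbours, and the second chromosome 6 cluster stands at 2 in each list.

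Among all windows of equal length laid over the genome, the clusters were not rare. As many peaks as in the first chromosome 6 cluster, or more, occurred in 15.9% of 290 kb windows for shCON CDT, 30.3% for shCON DHT and 20.6% for shRB CDT. For the second the shares of 100 kb windows were 8.58%, 9.53% and 11.4%. For chromosome 1 the shares of 90 kb windows were 7.41%, 26.1% and 28.7%. For shCON DHT and shRB CDT, with 1 peak each, these are simply the shares of windows with any peak. The windows cover each chromosome up to its last peak, with no gap in the sequence left out. The shCON CDT count of the first cluster includes the close pair at 1 site.

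Part of the neighbourhood may itself be histone territory. In the GRCh38 gene order H2BC11, H2AC11, H2BC12, H4C9 and H2AC12 lie between the 2 chromosome 6 clusters, and the pair H2AC1 and H2BC1 lies below the first. By this order these 7 genes lie outside the clusters, so the neighbours may not be free of histone genes. Their positions were not compared with the hg19 windows. The 1480 kb between the windows held 8 shCON CDT, 15 shCON DHT and 10 shRB CDT peaks in 20 regions, 5 of them in all 3 lists.

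In both CDT lists the median rank of the cluster peaks was below that of their neighbours, and in shCON DHT the medians were alike. The medians rest on 7 shCON CDT, 6 shRB CDT and 5 shCON DHT peaks and carry no interval, so they are a description only. The ranks of shCON DHT and shRB CDT ranged widely. The shCON CDT peaks include the close pair at 1 site. In shCON CDT all 7 stood below the 50 percentile, from 21.6 to 46.4 with a median of 30.0. The 44 peaks of the neighbours had a median of 51.1, and 22 of them stood below 50. None of the 7 reached the score cap (interval to 41.0%), which 34.1% of the neighbours' peaks and 32.5% of the whole list did. In shRB CDT the median percentile was 29.3 (range 3.17 to 82.5) against 50.9 in the neighbours. Here 4 of 6 stood below 50, against 25 of 51 in the neighbours. At the cap was 1 of the 6 (16.7%, 0.421 to 64.1), against 39.2% of the neighbours' peaks and 35.1% of the list. In shCON DHT the median was 38.2 (20.4 to 86.5) and the neighbours' 37.8, with 3 of 5 below 50 against 30 of 47 in the neighbours. Here 1 of 5 was at the cap (20%, 0.505 to 71.6), against 21.3% of the neighbours' peaks and 27.0% of the list. The cluster peaks were also narrow: 6 of 7, 3 of 5 and 6 of 6 lay below the median width of their list (937, 776 and 992 bp). The neighbours' peaks were narrow too, with 35 of 44, 34 of 47 and 37 of 51 below it.

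**Figure D3:**
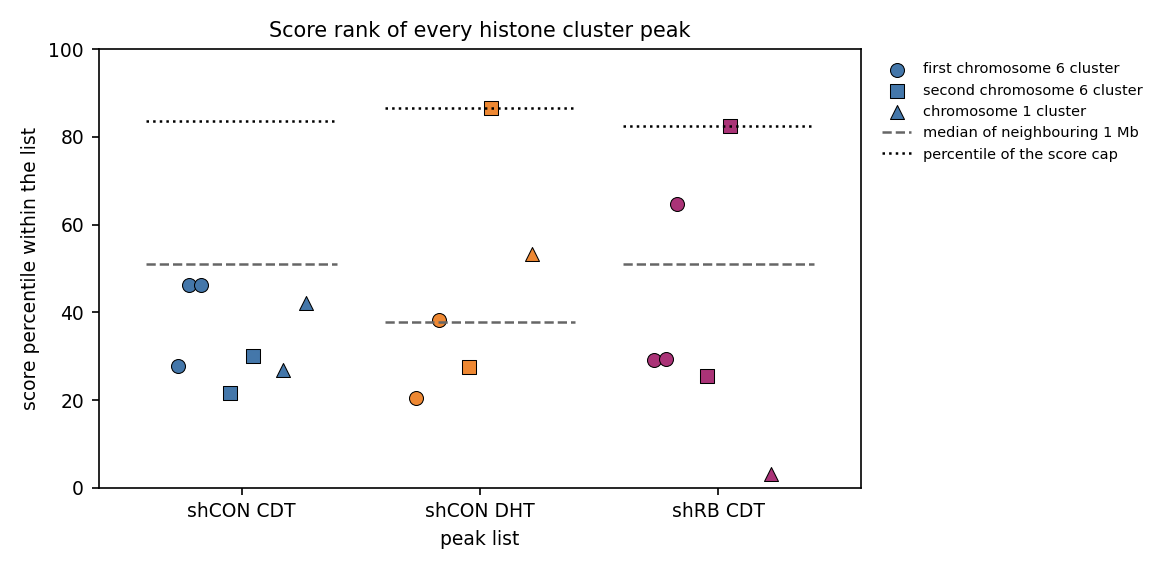
Score percentile, within its own list, of each of the 18 cluster peaks, with marker shape showing the cluster. Dashed lines are the medians of the neighbouring 1 Mb and dotted lines the percentile given to the score cap. All 7 shCON CDT peaks lie below the dashed line at 51.1, and only the common site of the second chromosome 6 cluster reaches a dotted line, for shCON DHT and for shRB CDT.

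Few cluster sites were common to the conditions. Of the 11 regions, 2 (18.2%, 2.28 to 51.8) had a peak in all 3 lists, against 28 of 72 (38.9%, 27.6 to 51.1) in the neighbours and 34.0% of all 21031 regions. Another 7 (63.6%, 30.8 to 89.1) were in 1 list only, against 45.8% of the neighbours and 50.8% of all. These 7 were 3 of shCON DHT, 2 of shCON CDT and 2 of shRB CDT. The remaining 2 were in both CDT lists, and none paired shCON DHT with a single other list. With 11 regions the intervals include the shares of the neighbours and of the genome.

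**Figure D4:**
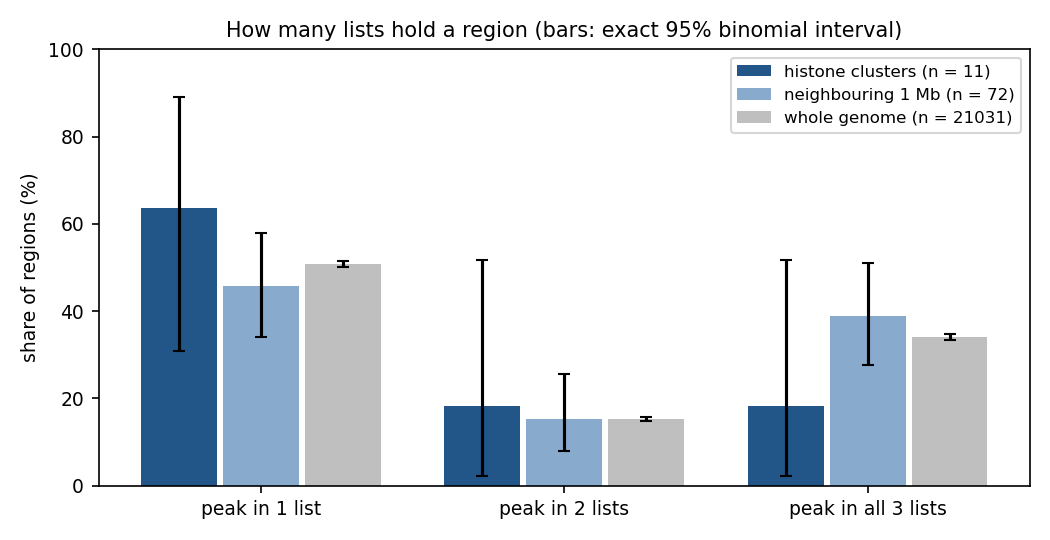
Share of regions with a peak in 1, 2 or all 3 lists, for the histone clusters, their neighbours and the whole genome, with exact 95% binomial intervals. The clusters' share in all 3 lists is 18.2% against 38.9% in the neighbours, with overlapping intervals.

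For RB depletion, 2 of the 6 shRB CDT cluster peaks had no shCON CDT counterpart (33.3%, 4.33 to 77.7), against 40.9% of the whole shRB CDT list. In the other direction 2 of 7 shCON CDT peaks were missing from shRB CDT (28.6%, 3.67 to 71.0), against 26.8% of the list. Both shares are near their backgrounds and give no result about the histone clusters. With a 50% reciprocal overlap the shCON CDT peaks shared with shRB CDT were 42.9% in place of 71.4%. The shRB CDT peaks shared with shCON CDT were then 50% in place of 66.7%. No whole-list share under that rule is given here, so these 2 values have no background. Neither shRB CDT peak without a counterpart, one in each chromosome 6 cluster, was above the 29.2 percentile.

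For androgen stimulation, 3 of the 5 shCON DHT peaks had no shCON CDT counterpart (60%, 14.7 to 94.7), against 36.7% of the list, and 5 of 7 shCON CDT peaks were missing from shCON DHT (71.4%, 29.0 to 96.3), against 34.6%. The latter 5 include the close pair at 1 site and the second chromosome 1 site. That site lies 0.365 kb from a shCON DHT peak, which belongs to the common site beside it. In the neighbours the same shares were 38.3% and 31.8%. The comparisons for RB and for androgen share the shCON CDT list. Between shRB CDT and shCON DHT, 4 of 6 peaks of the former were missing from the latter (66.7%, 22.3 to 95.7), against 42.1%, and 3 of 5 shCON DHT peaks were missing from shRB CDT (60%, 14.7 to 94.7), against 30.6%. The intervals include the background share in each of these 4 cases.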

How the data were processed

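ATAC-seq peak lists of LNCaP cells were used, 1 per group of 2 libraries, on hg19 per the submitters' processing notes. Per the labels, the list names give replicates 1 and 2 together and an IDR threshold of 0.1 with filtering, merging and scoring. The deposited score per peak is capped at 1000. Aligner, peak caller, read filters and the formula of the score are not stated in the labels or files. Each transposition used 75000 cells for 30 minutes at 37 °C, per the labels' protocols. Peaks were taken where they overlapped a window by at least 1 bp, and joined into regions by the same overlap across lists. Shares carry Clopper-Pearson intervals, density ratios exact conditional binomial intervals and densities exact Poisson intervals. Genome densities use chromosomes up to their last peak (3093 Mb). Overlapping neighbour stretches of the chromosome 6 clusters were counted once when pooled. Python 3.11.15, numpy 2.4.6, pandas 2.3.3, scipy 1.17.1 and matplotlib 3.10.9 were used, and the overlap code was tested on simulated lists with 20 of 20 planted answers recovered. Score percentiles are midranks within a list. The naming rule chose the widest common and the highest-scoring unshared regions of each cluster. As there were only 11 regions, all are named, a choice made after their values were seen. Members and lists were chosen with earlier results of these data known. Positions count from 1.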

Additional observations from a re-analysis of the deposited data

How the results depend on the processing

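Widening or narrowing the neighbours to 2 Mb or 500 kb on each side, or counting bases covered, left all 12 density ratios within the counting interval of the 1 Mb values. These intervals are wide, so the check is weak. With 500 kb the shCON CDT ratio of the first chromosome 6 cluster, for example, was 5.17 in place of 2.96 (0.493 to 12.9). Resetting peaks to 500 bp left all 13 shares and region counts unchanged. The top 50% of each list by score kept few cluster peaks: 0 for shCON CDT, 2 for shCON DHT and 2 for shRB CDT, from lists whose lowest scores were 760, 690 and 784. The density ratio over the 3 clusters was then 0 in shCON CDT and 0.878 in shRB CDT, below 1, and 1.34 in shCON DHT. Each interval included 1. With no shCON CDT cluster peak left, the shares of shCON DHT and of shRB CDT cluster peaks found in shCON CDT could only be 0. The same holds for each count below of regions with a shCON CDT peak, so these are no check of sharing. The regions of a single list then numbered 0 for shCON CDT, 1 for shCON DHT and 1 for shRB CDT, with 0 in both CDT lists, 1 held by shCON DHT together with shRB CDT, and 0 in all 3. With a 50% reciprocal overlap, 4 regions were in shCON CDT only and 1 in both CDT lists, and 42.9% of shCON CDT cluster peaks were shared with shRB CDT. Of the shRB CDT cluster peaks 50% were then shared with shCON CDT. With peaks within 500 bp counted as shared, 1 was in shCON CDT only. In lists cut to 12096 peaks the chromosome 1 peak of shRB CDT was lost, leaving 1 region in both shCON lists and 1 in all 3. Widths at sites with all peaks at the cap were not run, as no cluster region qualified, and the share at the cap is given with the percentiles. No paired analysis was possible because the lists used here combine both replicates, which also means that leaving out a replicate was not possible.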
